A study of Homo sapiens with 24 samples.

Results

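The deoxynucleotide synthesis enzymes were taken as 8 genes, RRM1, RRM2, TYMS, TK1, DTYMK, DUT, DCK and SAMHD1, which were found by their Ensembl identifiers among the 58721 genes counted in each of 24 RNA-seq libraries of A549, an established human lung adenocarcinoma cell line. All 8 passed the filter on low counts in every comparison. Each treatment was compared with its own control. Cells transfected with 25 nM siRNA against the transcription factor MYBL2 (siMYBL2, 4 libraries) or against FOXM1 (siFOXM1, 4 libraries) shared a scrambled siRNA control (siControl, 4 libraries). Cells with both siRNAs (siBoth, 3 libraries) had a scrambled control of their own (siControl_both, 3 libraries), and cells given 20 uM of FDI-6 for 24 h (FDI6, 3 libraries), a compound known as an inhibitor of FOXM1 binding to DNA, had Control_FDI6 (3 libraries). The labels give no vehicle for Control_FDI6 and no time after transfection, and they do not say whether 25 nM in siBoth was the dose of each siRNA or of both together. All groups were the same cell line and came from bulk poly(A) RNA, in which fewer cells of a cell-cycle phase and less RNA per cell cannot be told apart.

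Cells copy their DNA from the set of deoxynucleoside triphosphates, and these enzymes set their supply. Ribonucleotide reductase, a complex of the large subunit RRM1 with the small subunit RRM2, reduces ribonucleotides to deoxyribonucleotides, and RRM2B is the small subunit used outside S phase. Thymidylate is made de novo by thymidylate synthase (TYMS) or salvaged by the cytosolic thymidine kinase TK1, and thymidylate kinase (DTYMK) carries it on towards dTTP. The dUTPase DUT removes dUTP and yields the dUMP that TYMS uses, deoxycytidine kinase (DCK) starts the salvage of deoxycytidine and of some purine deoxynucleosides, and SAMHD1 works in the opposite direction by cleaving deoxynucleoside triphosphates. RRM2, TYMS and TK1 are textbook examples of genes whose transcripts accumulate around S phase.

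The sequences just upstream of the genes that moved are printed here because the treatments act on transcription factors. Each run is the 150 bases before the RefSeq transcription start site (GRCh38.p14) nearest to the start of the GENCODE canonical transcript, 5′ to 3′ on the strand of the gene, with capitals at the CCAAT box (or ATTGG, its reverse), at the AT-rich string TTTAAA and at the MYB-type string AACGG. RRM2 comes from chr2:10122589-10122738 (plus strand), TK1 from chr17:78187053-78187202 (minus strand), DTYMK from chr2:241686816-241686965 (minus strand), DUT from chr15:48331279-48331428 (plus strand) and SAMHD1 from chr20:36951709-36951858 (minus strand).
RRM2: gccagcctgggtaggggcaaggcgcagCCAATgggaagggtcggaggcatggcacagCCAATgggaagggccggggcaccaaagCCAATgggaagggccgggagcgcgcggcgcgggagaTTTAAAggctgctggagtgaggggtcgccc
TK1: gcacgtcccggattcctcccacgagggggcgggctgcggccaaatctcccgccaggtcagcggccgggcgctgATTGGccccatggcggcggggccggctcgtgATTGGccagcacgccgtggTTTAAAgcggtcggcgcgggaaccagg
DTYMK: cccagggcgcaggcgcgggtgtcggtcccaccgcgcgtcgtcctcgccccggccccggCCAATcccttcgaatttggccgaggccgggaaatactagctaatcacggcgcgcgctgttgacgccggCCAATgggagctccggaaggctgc
DUT: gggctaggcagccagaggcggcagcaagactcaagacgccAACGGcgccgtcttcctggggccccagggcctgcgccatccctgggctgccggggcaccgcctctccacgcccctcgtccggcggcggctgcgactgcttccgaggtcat
SAMHD1: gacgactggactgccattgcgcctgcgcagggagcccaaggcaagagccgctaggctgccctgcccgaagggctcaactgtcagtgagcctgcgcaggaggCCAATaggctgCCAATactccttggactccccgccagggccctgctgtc

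All 8 genes matched RefSeq, with 13 windows in total because DUT has 4 and RRM2 and TK1 have 2 each. For each gene only the window nearest the canonical start was searched, so the other windows of these genes are not described. The letters searched on both strands, from 250 bases before to 50 after the start site, were the CCAAT box, the CHR-type string TTTGAA, the AT-rich string TTTAAA, the forkhead-type string TAAACA, the MYB-type string AACGG and an E2F-type site in the forms TTTGGCGC, TTTCCCGC, TTTCGCGC and TTTGCCGC. RRM2 had 3 CCAAT boxes, with first bases at -123, -93 and -66 from the start, and TTTAAA at -30. TK1 had its 2 boxes on the reverse strand at -77 and -46 and TTTAAA at -27 (and at -250), and DTYMK and SAMHD1 had 2 boxes each, at -92 and -24 and at -49 and -38. Of 35116 windows of this length, 34.6% held at least 1 CCAAT, 10.8% at least 2, 3.26% at least 3 and 12.2% TTTAAA. RRM1 also had a CCAAT box, at -28. The searched window of DUT held no CCAAT box and no TTTAAA. It had AACGG, a string found in 19.7% of windows, and so did TYMS, on the reverse strand at -148. The E2F-type letters, in 3.3% of windows, were present for TYMS and DCK, TTTGAA (15.2%) for RRM1 and TAAACA (12.3%) in no searched window of a member. These matches describe letters and were not tested as sites.

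Between 16487394 and 30140550 read pairs per library were counted on genes (median 24208064.5). The 6 libraries of the siBoth experiment stood apart in the share of pairs that did not align, 7.68% to 10.93%, against 1.73% to 3.03% in the others. Within that experiment the share was higher in siBoth (9.09%, 10.93% and 10.05%) than in siControl_both (7.68%, 7.92% and 7.81%), without overlap, beside the changes in RRM2, TK1 and SAMHD1 given below, and its part in them was not tested. The A549 and epithelial markers summed to 8315 to 20009 CPM (counts scaled to a common total of pairs counted on genes) and moved with treatment. Their sums were 8315 to 10257 CPM in siBoth against 10753 to 14883 in siControl_both, 10161 to 14795 in siMYBL2 against 15497 to 19855 in siControl and 14048 to 14382 in FDI6 against 19390 to 20009 in Control_FDI6, without overlap in each, while siFOXM1 (15102 to 19741) overlapped siControl. Of these 8 markers 5 were called lower in FDI6 (8 at the adjusted p, median log2 fold change -0.67), 1 in siMYBL2, 1 in siBoth and 0 in siFOXM1, and their part in the results was not tested. The 10 markers of other cell types summed to at most 9.142 CPM, with CD3E at 0 in all libraries, and the genes deleted in A549, CDKN2A and MTAP, to at most 1.146 CPM. The targeted genes went with the labels. MYBL2 was at 6.63 ± 1.94 CPM (SD, n = 4) in siMYBL2 against 152 ± 19.1 (n = 4) in siControl and at 8.73 ± 2.17 (n = 3) in siBoth against 165 ± 17.6 (n = 3) in siControl_both. FOXM1 was at 12.3 ± 1.31 CPM (n = 4) in siFOXM1 against 125 ± 13.1 in siControl and at 13.5 ± 2.87 (n = 3) in siBoth against 130 ± 10.4 in siControl_both.

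**Figure D1:**
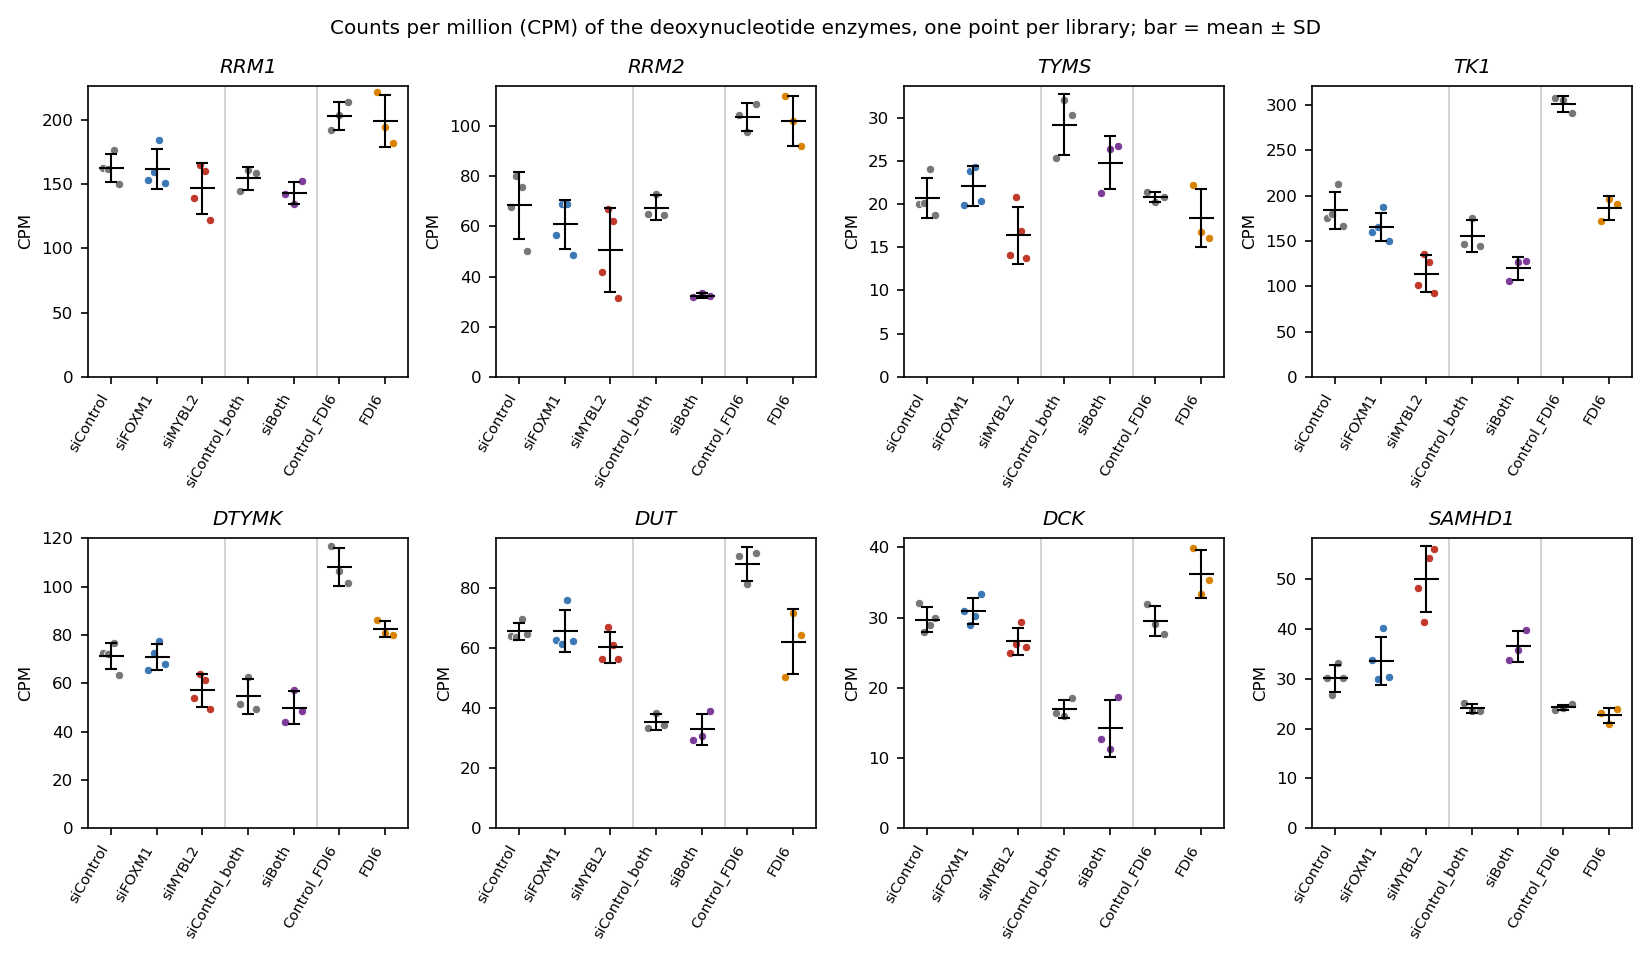
Level of each enzyme in CPM (vertical axis, starting at 0) in every library, with the mean and SD of each group as black bars and grey lines between the experiments. RRM2 in siBoth (31.6 to 33.3 CPM) and TK1 in FDI6 (172 to 196 CPM) lie wholly below their own controls, and SAMHD1 in siMYBL2 (41.3 to 55.9 CPM) lies wholly above.

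By the calls, knockdown of MYBL2 lowered TK1 and raised SAMHD1, knockdown of both factors lowered RRM2, and FDI-6 lowered TK1. Knockdown of FOXM1 alone called none of the enzymes. TK1 (-0.48) and SAMHD1 (0.50) also passed the adjusted p in siBoth, under the fold threshold. A gene called with 1 treatment and not with another need not differ between them, and such differences are tested further below. Calls come from quasi-likelihood tests in edgeR. They needed a fold change of more than 1.5 in addition to a p below 0.05 after Benjamini-Hochberg adjustment across every gene tested, and p-values measure the spread between the libraries, which the labels do not describe as separate cultures. In siMYBL2, 1 of 8 enzymes was called lower, where 3.52% of all genes tested were, and 1 higher, against 4.38%. At the adjusted p alone 2 were lower (9.53% of all genes) and 1 higher (8.53%). In siBoth 1 was called lower (3.64% of all genes) and 0 higher (2.80%), and at the adjusted p alone 2 were lower (7.77%) and 1 higher (4.55%). In FDI6 1 was called lower (5.77%) and 0 higher (8.0%), with 3 lower (17.9%) and 0 higher (21.0%) at the adjusted p alone. In siFOXM1 edgeR called 0 of 8 in either direction (0.591% of all genes lower and 0.0755% higher, or 1.09% and 0.277% at the adjusted p alone). There 0 of 8 had an unadjusted p under 0.05, where 2060 of 15892 genes did, and DESeq2 also called 0.

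The median log2 fold change of the 8 enzymes was -0.31 in siMYBL2, -0.04 in siFOXM1, -0.29 in siBoth and -0.18 in FDI6. Over all genes tested it was 0.01, 0.00, 0.02 and -0.01. Fold changes lay below 0 for 7 of 8 enzymes in siMYBL2, siBoth and FDI6, the exception being SAMHD1 in both knockdowns and DCK with FDI-6. In siMYBL2 the CPM of 1 enzyme lay wholly below the controls (8.78% of all genes did) and of 1 wholly above (15.5%), in siBoth of 2 below (11.6%) and 1 above (25.2%), in FDI6 of 3 below (22.2%) and 1 above (29.4%), and in siFOXM1 of 0 below (3.88%) and 0 above (6.11%).

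Libraries with the same replicate number deviated together in the 3 knockdown experiments, so results of the 8 enzymes that a replicate block changes are given both ways. With it, 7 enzymes were lower and 1 higher in siMYBL2 at the adjusted p, where 23.1% and 23.6% of all genes were. In siBoth 6 were lower (18.5%) and 1 higher (16.3%), and in siFOXM1 2 were lower (14%) and 0 higher (12.3%). The numbers called with the fold threshold were the same as without the block, 1 lower and 1 higher in siMYBL2 (4.71% and 7.68% of all genes with the block), 1 lower and 0 higher in siBoth (5.08% and 6.62%) and 0 in siFOXM1 (1.47% and 1.05%).

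**Figure D2:**
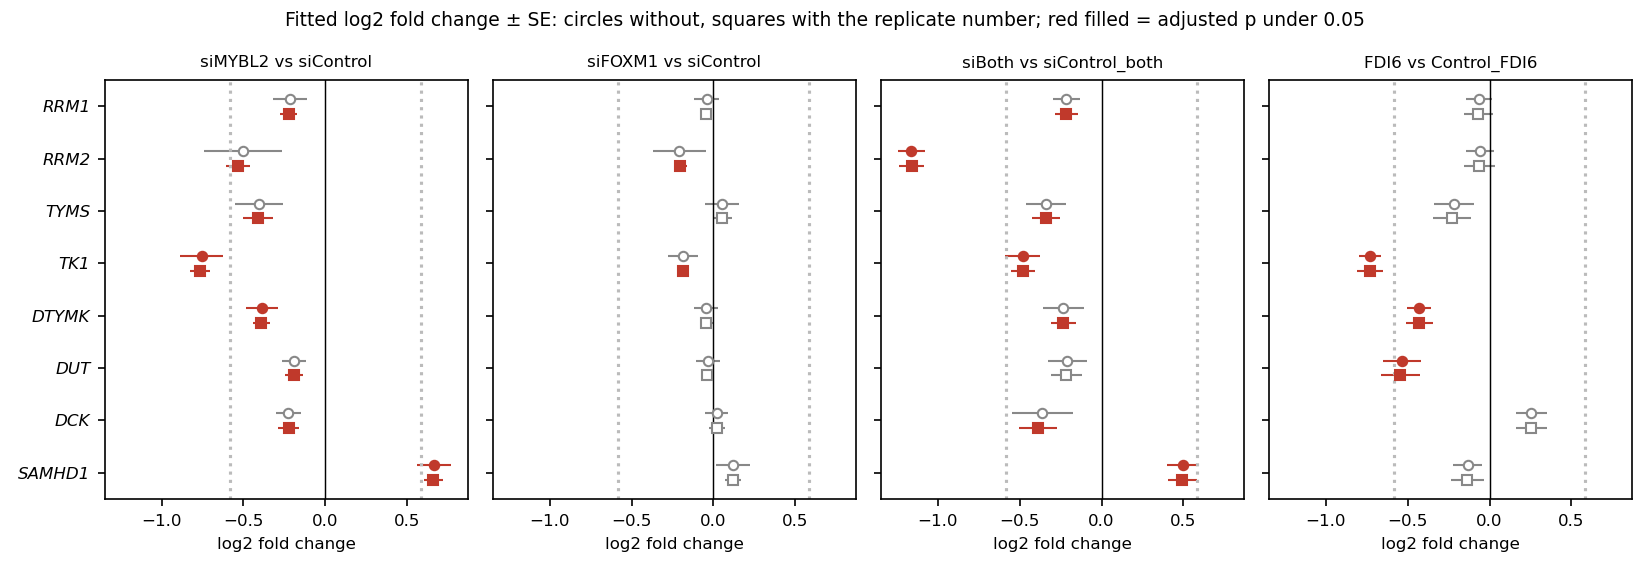
Fitted log2 fold change of each enzyme (horizontal axis) with its SE in the 4 comparisons, as circles without and squares with the replicate number in the model, red and filled at an adjusted p under 0.05. Dotted lines mark a fold change of 1.5. The siFOXM1 points sit closest to 0 (from -0.21 to 0.12 without the block), and RRM2 in siBoth is the point furthest from 0, at -1.16.

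Per kilobase of the canonical transcript, TK1 had the highest level of the 8 in all 7 groups, from 79.7 ± 14 CPM per kb (SD, n = 4) in siMYBL2 to 211 ± 6.12 (n = 3) in Control_FDI6. DTYMK and RRM1 followed in that order in every group, and their ranges overlapped in siMYBL2, siBoth and siControl_both. In siControl the order went on with DUT (30.6 ± 1.3), RRM2 (21.0 ± 4.09), TYMS (12.9 ± 1.42), DCK (11.9 ± 0.715) and SAMHD1 (6.46 ± 0.565), and only TYMS and DCK overlapped as neighbours. SAMHD1 was last in siControl, siFOXM1, siControl_both, FDI6 and Control_FDI6, but sixth in siMYBL2 at 10.7 ± 1.42 CPM per kb, where its range overlapped those of RRM2, DCK and TYMS, and seventh in siBoth, where its range overlapped that of DCK. The controls themselves differed between experiments. DUT was at 65.5 CPM in siControl, 35.4 in siControl_both and 87.9 in Control_FDI6, and DCK at 29.7, 17.0 and 29.6 CPM, so levels are compared only within an experiment.

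RRM1 encodes the subunit with the catalytic and allosteric sites (ENSG00000167325.14, chr11:4094707-4138932, plus strand, hg38, 19 exons in the canonical transcript). Its CPM in siMYBL2 was 139, 165, 161 and 122 in replicates 1 to 4, against 163, 162, 177 and 150 in siControl. The groups overlapped, and the log2 fold change was -0.22 ± 0.10 (SE, adjusted p = 0.178 with edgeR), or -0.22 with an adjusted p of 0.00237 with the replicate block. siFOXM1 libraries had 153, 160, 185 and 151 CPM, a log2 fold change of -0.04 (adjusted p = 0.904, edgeR). In siBoth RRM1 was at 142, 135 and 152 CPM against 144, 161 and 159 in siControl_both, again with overlap, at -0.21 ± 0.08 (adjusted p = 0.125 with edgeR and 0.0276 with the block). FDI6 libraries held 222, 195 and 182 CPM and Control_FDI6 192, 204 and 214, with the treated values on both sides of the controls and a log2 fold change of -0.06 (adjusted p = 0.549, edgeR). By CPM, RRM1 transcripts stayed between 90.1% and 99.6% of the control mean in the 4 comparisons. The fitted log2 fold changes, which use the TMM scaling of edgeR, lay lower, at -0.22 in siMYBL2 and -0.21 in siBoth. No change passed without the block in the comparisons as first fitted. With FDI-6 RRM1 passed without FDI6 replicate 1 (-0.15, adjusted p = 0.0293, edgeR) and with a correction for GC content and length (-0.20, adjusted p = 0.0101).

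RRM2, the small subunit made for S phase and degraded later in the cycle (ENSG00000171848.14, chr2:10120698-10211725, plus strand, 10 exons), carried the 3 CCAAT boxes printed above. In siBoth it was at 31.6, 33.3 and 32.2 CPM, against 64.9, 73.1 and 64.4 in siControl_both. All 3 siBoth libraries lay below all controls and close to each other, at 48.0% of the control mean. The log2 fold change of RRM2 was -1.16 ± 0.08 (SE, adjusted p = 0.000294 with edgeR) and RRM2 was called in all 16 alternatives, from -1.21 to -1.06.

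RRM2 was more scattered in the single knockdowns. The siMYBL2 libraries had 41.6, 67.1, 62.3 and 31.6 CPM in replicates 1 to 4, and the siControl libraries 67.9, 80.3, 75.8 and 50. The groups overlapped, because replicate 4 was low in both, but each siMYBL2 library was below the siControl library of its number. The log2 fold change was -0.50 ± 0.24 (adjusted p = 0.183 with edgeR, 0.0426 with all 24 libraries in 1 fit) without the replicate block and -0.53 ± 0.07 (adjusted p = 4.22e-05) with it. siFOXM1 showed the same arrangement with smaller steps, at 56.7, 68.9, 68.7 and 48.7 CPM, lower in 4 of 4 pairs and overlapping as groups. There the log2 fold change was -0.21 ± 0.16 (adjusted p = 0.686 with edgeR) and -0.20 ± 0.04 with the block (adjusted p = 0.000482). FDI6 libraries had 112, 102 and 92.0 CPM against 104, 97.5 and 109 in Control_FDI6, interleaved, with a log2 fold change of -0.06 ± 0.08 (adjusted p = 0.609, edgeR).

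**Figure D3:**
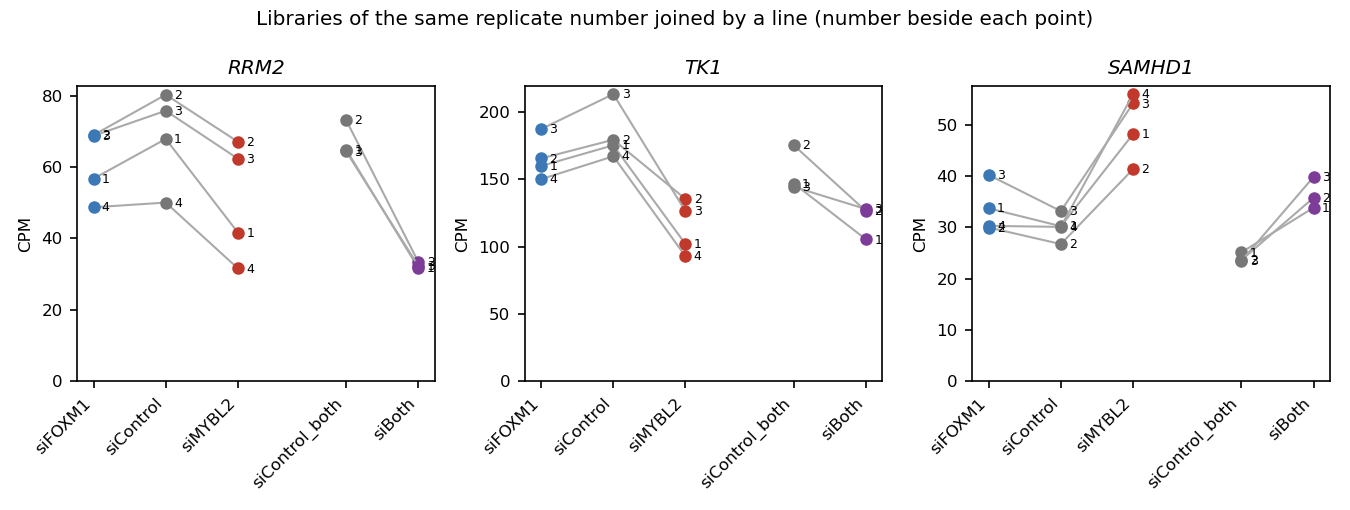
CPM (vertical axis, starting at 0) of RRM2, TK1 and SAMHD1 in the siRNA libraries, with libraries of the same replicate number joined by a line and the number beside each point. RRM2 of replicate 4 is lowest in siControl (50), siFOXM1 (48.7) and siMYBL2 (31.6), while the siBoth values lie close together at 31.6 to 33.3.

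TYMS makes thymidylate from dUMP (ENSG00000176890.15, chr18:657653-673578, plus strand, 7 exons). It was at 14.1, 20.8, 16.9 and 13.7 CPM in siMYBL2 and 20.0, 20.2, 24.0 and 18.7 in siControl, with 1 siMYBL2 library, replicate 2, inside the control range. The log2 fold change was -0.41 ± 0.15 (adjusted p = 0.0879 with edgeR), -0.41 with the replicate block (adjusted p = 0.00209) or with all 24 libraries in 1 fit (adjusted p = 0.0284) and -0.56 without siMYBL2 replicate 2 (adjusted p = 0.0207). In siBoth it was 21.3, 26.4 and 26.7 CPM against 25.3, 32.0 and 30.3, lower in 3 of 3 pairs but overlapping, at -0.34 ± 0.12 (adjusted p = 0.108 with edgeR and 0.00617 with the block). siFOXM1 (19.8 to 24.2 CPM) was at 0.05 (adjusted p = 0.910) and FDI6 (22.3, 16.7 and 16.1 CPM against 20.2 to 21.4) at -0.22 (adjusted p = 0.188), or at -0.38 (adjusted p = 0.00244, edgeR) without FDI6 replicate 1. Of the exon bases of TYMS, 47.9% lie under genes on the opposite strand, ENOSF1 and TYMSOS. The strand setting of the counting is not given in the sources used here, so pairs in that stretch cannot be assigned with certainty. ENOSF1 itself had log2 fold changes of -0.14, 0.04, -0.14 and -0.08 in siMYBL2, siFOXM1, siBoth and FDI6, none of which passed without the block, and with it the siMYBL2 value did (-0.14, adjusted p = 0.0397).

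TK1, the thymidine kinase of proliferating cells (ENSG00000167900.11, chr17:78174091-78187233, minus strand, 7 exons, no exon overlap with another gene), passed the adjusted p in 3 of the 4 comparisons, the most of the 8 enzymes without the block. It was at 102, 135, 126 and 92.7 CPM in siMYBL2 against 175, 179, 213 and 167 in siControl. The highest siMYBL2 library stayed below the lowest control, and the mean was 62.1% of control. The log2 fold change was -0.76 ± 0.13 (SE, adjusted p = 0.00519 with edgeR) and TK1 was called in all 18 alternatives, from -0.86 to -0.67.

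In siBoth TK1 was at 105, 126 and 128 CPM against 147, 175 and 144 in siControl_both. These groups did not overlap either, and TK1 passed the adjusted p at a log2 fold change of -0.48 ± 0.11 (adjusted p = 0.0264 with edgeR), below a fold change of 1.5. Leaving out siBoth replicate 1, siBoth replicate 2 or siControl_both replicate 2 ended this, at -0.42, -0.52 and -0.39 (adjusted p = 0.0667, 0.0587 and 0.0853), as did scaling by library size only, at -0.38 (adjusted p = 0.0595), while a correction for GC content and length took it to -0.65. FDI6 libraries were at 172, 196 and 191 CPM against 307, 305 and 291 in Control_FDI6, with a wide gap between the groups and a mean of 61.8% of control. This log2 fold change was -0.73 ± 0.07 (adjusted p = 1.28e-05, edgeR), and with the GC and length correction it was -0.36 (adjusted p = 4.11e-05), under the fold threshold. In siFOXM1 TK1 was at 160, 165, 187 and 150 CPM, lower than siControl in 4 of 4 pairs with overlapping groups, at -0.19 ± 0.09 (adjusted p = 0.456 with edgeR and 5.77e-05 with the block).

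DTYMK, which phosphorylates thymidylate from both routes (ENSG00000168393.12, chr2:241675747-241686944, minus strand, 5 exons), passed the adjusted p in siMYBL2 and FDI6. It was at 53.7, 63.9, 61.3 and 49.3 CPM in siMYBL2 against 72.5, 72.2, 76.6 and 63.6 in siControl. Only siMYBL2 replicate 2 reached above the lowest control, and the log2 fold change of -0.39 ± 0.10 passed the adjusted p (0.0238, edgeR). It missed it without siMYBL2 replicate 1 (-0.36, adjusted p = 0.0742) or without siControl replicate 1, 2 or 3 (-0.38, -0.39 and -0.36, adjusted p = 0.0642, 0.0620 and 0.0616), and passed with the block (3.1e-05). FDI6 libraries had 86.1, 80.7 and 80.2 CPM against 117, 106 and 102 in Control_FDI6, without overlap, at -0.43 ± 0.08 (adjusted p = 0.00107, edgeR). With the GC and length correction the FDI6 value was -0.08 (adjusted p = 0.455). In siBoth DTYMK was 43.8, 57.4 and 48.4 CPM against 51.5, 62.5 and 49.4, lower in 3 of 3 pairs, at -0.23 ± 0.13 (adjusted p = 0.251 with edgeR and 0.0237 with the block), and it passed with the GC and length correction (-0.41, adjusted p = 0.038). siFOXM1 was at 65.4 to 77.5 CPM and -0.05 (adjusted p = 0.891).

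DUT, which keeps uracil out of DNA (ENSG00000128951.13, chr15:48331011-48343373, plus strand, 7 exons), passed with FDI-6. It was at 50.5, 71.5 and 64.4 CPM in FDI6 against 90.5, 81.4 and 91.7 in Control_FDI6. The groups did not overlap, and the treated libraries were more spread than the controls. The log2 fold change was -0.53 ± 0.11 (adjusted p = 0.00327, edgeR), just inside a fold of 1.5, and it crossed that line without FDI6 replicate 2 (-0.66) or Control_FDI6 replicate 2 (-0.59). In siMYBL2 DUT was at 56.3 to 67.0 CPM against 63.8 to 69.6, at -0.19 (adjusted p = 0.107 with edgeR and 0.0104 with the block), or at -0.26 without siMYBL2 replicate 2 (adjusted p = 0.0332). In siBoth it was at 29.3, 30.6 and 38.9 CPM against 33.5, 38.2 and 34.4, with siBoth replicate 3 above all controls, at -0.21 (adjusted p = 0.281). In siFOXM1 3 libraries had 61.5 to 62.7 CPM and replicate 3 had 75.9, and the log2 fold change was -0.03 (adjusted p = 0.922). Counts per gene do not separate the nuclear and mitochondrial forms of DUT, which start at different first exons, and 14.5% of its exon bases lie under DUT-AS1 on the opposite strand.

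DCK (ENSG00000156136.9, chr4:70992538-71030914, plus strand, 7 exons) stood higher with FDI-6 without passing the test. FDI6 libraries had 39.9, 33.3 and 35.4 CPM and Control_FDI6 31.9, 29.1 and 27.7, so that all treated libraries were above all controls. The log2 fold change was 0.26 ± 0.10 and did not pass (adjusted p = 0.0544, edgeR), although it did with scaling by library size only (0.29, adjusted p = 0.0308). That was the only 1 of the 10 alternatives with all libraries kept in which DCK passed. Over these its log2 fold change ran from 0.006 to 0.293. In siMYBL2 DCK was at 25.0, 26.3, 29.4 and 25.9 CPM against 32.1, 27.9, 28.9 and 29.9, at -0.23 ± 0.08 (adjusted p = 0.071 with edgeR, 0.0134 with the block and 0.0446 with DESeq2). siBoth libraries had 12.7, 11.2 and 18.8 CPM against 16.5, 16 and 18.5 in siControl_both. Replicate 3 of siBoth stood above every control there, and the log2 fold change was -0.36 ± 0.19 (adjusted p = 0.232 with edgeR and 0.0175 with the block), or -0.62 without it (adjusted p = 0.0358). siFOXM1 (29 to 33.4 CPM) was at 0.02 (adjusted p = 0.957). Of the exon bases of DCK, 6.4% lie under MOB1B on the same strand.

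SAMHD1, the triphosphohydrolase that lowers deoxynucleotide pools (ENSG00000101347.9, chr20:36890229-36951893, minus strand, 16 exons), rose in siMYBL2 and siBoth. It was at 48.2, 41.3, 54.2 and 55.9 CPM in siMYBL2 against 30.2, 26.7, 33.2 and 30.1 in siControl. Every siMYBL2 library was above every control, at 166% of the control mean. The rise was 0.66 ± 0.11 on the log2 scale (adjusted p = 0.00345, edgeR), called in all 18 alternatives from 0.61 to 0.73. In siBoth SAMHD1 was at 33.8, 35.8 and 39.8 CPM against 25.1, 23.6 and 23.4 in siControl_both, again without overlap. It passed the adjusted p at 0.50 ± 0.09 (0.0142, edgeR), below the fold threshold, but missed it without siControl_both replicate 2 (0.48, adjusted p = 0.0621) or replicate 3 (0.47, adjusted p = 0.0645). siFOXM1 libraries had 33.7, 30, 40.2 and 30.3 CPM, above siControl in 4 of 4 pairs and overlapping, at 0.12 ± 0.10 (adjusted p = 0.722 with edgeR and 0.0856 with the block). FDI6 (23.1, 21.0 and 23.9 CPM) overlapped Control_FDI6 (23.8, 24.1 and 24.9), at -0.13 ± 0.09 (adjusted p = 0.261, edgeR). Of the exon bases of SAMHD1, 9.9% lie under TLDC2 on the opposite strand.

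The effects were also compared with each other. The siMYBL2 and siFOXM1 effects use the same siControl libraries, so their difference is that between the siMYBL2 and siFOXM1 libraries. At an adjusted p under 0.05, 4 enzymes were lower (13.2% of 16538 genes were) and 1 higher (12%). TK1 was lower by -0.58 ± 0.12 (adjusted p = 0.00427, edgeR), TYMS by -0.47 ± 0.14 (0.0248), DTYMK by -0.35 ± 0.09 (0.0133) and DCK by -0.25 ± 0.07 (0.0184), and SAMHD1 was higher by 0.53 ± 0.11 (0.00418). With the replicate block all 8 differed, 7 lower (25.7% of all genes) and 1 higher (25.3%), among them RRM2 at -0.34 (adjusted p = 0.000689). Without siMYBL2 replicate 1, 3 of the 8 differed, and TYMS (-0.41, adjusted p = 0.0776) and DCK (-0.23, adjusted p = 0.0594) did not. TYMS also missed the test without siMYBL2 replicate 4 (-0.39), siFOXM1 replicate 2 (-0.43) or siFOXM1 replicate 3 (-0.43), and DCK without siFOXM1 replicate 4 (-0.22), with upper-quartile scaling (-0.20) or with no filter (-0.27).

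Between siBoth and siMYBL2, each against its own control, edgeR found 0 enzymes to differ (0.176% of 17012 genes were lower and 0.00% higher), and DESeq2 also found 0. An unadjusted p under 0.05 was found for 1 enzyme, where 1323 of 17012 genes had one. That enzyme was RRM2, for which the siBoth effect was lower by -0.66 ± 0.31 (adjusted p = 0.639). With the replicate block the difference was -0.62 ± 0.11 (adjusted p = 0.00308), and 1 of 8 differed (4.79% of all genes lower and 2.26% higher). TK1 showed the opposite sign, 0.27 ± 0.19 (adjusted p = 0.806), and RRM1 0.00 ± 0.14. The siBoth and siMYBL2 experiments also differ in their share of unaligned pairs, which cannot be told apart from the treatment here.

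Between FDI-6 and FOXM1 knockdown, 3 enzymes were lower with FDI-6 (8.64% of 17026 genes) and 0 higher (12.3%). These were TK1 (-0.55 ± 0.13, adjusted p = 0.007), DUT (-0.50 ± 0.15, adjusted p = 0.0242) and DTYMK (-0.39 ± 0.11, adjusted p = 0.0239). DUT missed the test without Control_FDI6 replicate 1 (-0.48, adjusted p = 0.066) or 3 (-0.48, adjusted p = 0.058), and DTYMK without FDI6 replicate 2 (-0.38) or 3 (-0.36), without Control_FDI6 replicate 1 (-0.32), or with no filter (-0.36). Without Control_FDI6 replicate 1, 1 of the 8 differed. The GC and length correction was not fitted to this difference. In FDI6 against Control_FDI6 it took DTYMK to -0.08 (adjusted p = 0.455, edgeR) and TK1 to -0.36. DUT stayed between -0.58 and -0.50 there over the 10 alternatives with all libraries kept. The part of GC content and length in the difference was not tested. FDI6 cells were treated with a compound for 24 h and siFOXM1 cells were transfected, so the agent, the target level and the time differ together.

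Ratios of transcripts within a library are free of the scaling between libraries, but they are not corrected for GC content and length, in which the 2 genes can differ. They were tested by an exact two-sided permutation test over libraries, 16 tests in all, whose smallest possible p is 0.0286 with 4 libraries against 4 and 0.1 with 3 against 3. The log2 ratio of RRM2 to RRM1 counts was -2.14 ± 0.11 (SD, n = 3) in siBoth against -1.20 ± 0.09 in siControl_both, a difference of -0.94 without overlap (exact p = 0.1, adjusted p = 0.2). It was lower in 4 of 4 pairs in siMYBL2 (difference -0.32, exact p = 0.143, adjusted p = 0.208) and in siFOXM1 (-0.16, exact p = 0.314, adjusted p = 0.387), and higher by 0.01 in FDI6 (exact p = 1).

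The ratio of RRM2 to RRM2B, the small subunit that is not tied to S phase, was lower in siBoth by -1.16 and in FDI6 by -0.62, both without overlap (exact p = 0.1, adjusted p = 0.2). In siMYBL2 it was -0.67 (exact p = 0.143, adjusted p = 0.208) and in siFOXM1 -0.02 (exact p = 0.943). The genes behind it differed. In siFOXM1 RRM2B was at -0.18 (adjusted p = 0.592 with edgeR and 0.000614 with the block), lower in 4 of 4 pairs, as RRM2 was. In siMYBL2 RRM2B was at 0.12 (adjusted p = 0.478 with edgeR and 0.034 with the block). In siBoth RRM2B was at 56.0 ± 6.09 CPM against 52.2 ± 5.97 (log2 fold change 0.00, adjusted p = 0.995 with edgeR) while RRM2 fell. In FDI6 RRM2 did not pass without the GC and length correction (-0.21 with it). RRM2B rose from 72.1 ± 2.80 to 109 ± 9.24 CPM (n = 3 each, log2 fold change 0.57 ± 0.08, adjusted p = 0.000186, edgeR). The canonical transcripts hold 35.1% GC in RRM2B and 42.1% in RRM2, and the part of this in the ratio was not tested.

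TK1 was set against TK2, the mitochondrial thymidine kinase. The log2 ratio was 1.83 ± 0.34 (SD, n = 4) in siMYBL2 against 3.09 ± 0.35 in siControl, lower by -1.26 in 4 of 4 pairs and without overlap (exact p = 0.0286, adjusted p = 0.2). It was lower by -0.82 in siBoth and by -0.95 in FDI6, without overlap (exact p = 0.1 each, adjusted p = 0.2), and by -0.35 in siFOXM1 (exact p = 0.114, adjusted p = 0.203). TK2 itself rose in siMYBL2 from 21.6 ± 2.92 to 31.8 ± 2.70 CPM (n = 4 each, log2 fold change 0.49 ± 0.11, adjusted p = 0.0153, edgeR), and its values in siBoth (0.34, adjusted p = 0.0665, or 0.00322 with the block) and FDI6 (0.21, adjusted p = 0.0727) did not pass without the block. In siFOXM1 TK2 was at 0.16 (adjusted p = 0.600 with edgeR) or 0.17 with the block (adjusted p = 0.0437). The ratio of SAMHD1 to RRM2, a breaker against a maker of deoxynucleotides, was higher by 1.20 in siMYBL2 (0.03 ± 0.65 against -1.17 ± 0.35, exact p = 0.0286, adjusted p = 0.2) and by 1.65 in siBoth (0.17 ± 0.12 against -1.48 ± 0.13, exact p = 0.1, adjusted p = 0.2), both without overlap. In siFOXM1 it was higher by 0.32 (exact p = 0.286, adjusted p = 0.381) and in FDI6 lower by -0.07 (exact p = 0.6, adjusted p = 0.686). No ratio passed after adjustment over the 16 tests. With groups this small the smallest possible p-values let no ratio pass that adjustment, so this outcome decides nothing.

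**Figure D4:**
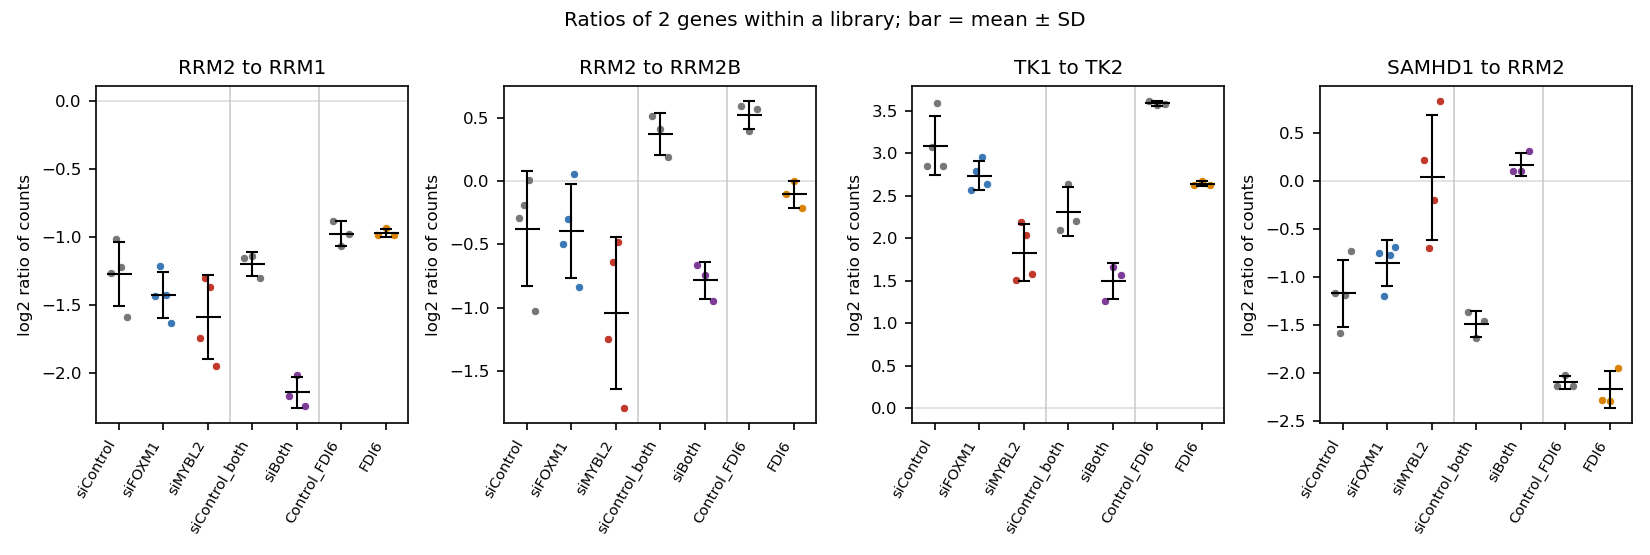
Log2 ratio of the counts of 2 genes in every library (vertical axis), with mean and SD per group as black bars. The 3 siBoth libraries lie below their controls for RRM2 to RRM1, RRM2 to RRM2B and TK1 to TK2 and above them for SAMHD1 to RRM2, and the FDI6 libraries lie below their controls for RRM2 to RRM2B and TK1 to TK2.

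Over the 24 libraries, taken as log2 CPM minus the mean of the own control group, the genes most like each enzyme among 12539 with a mean of at least 50 counts were these. The libraries share treatments and depth, the values were not corrected for GC content and length, and the correlations are descriptions. RRM2 went with SKA3, KIF23 and CDCA2 (Pearson r = 0.944, 0.936 and 0.930), genes of mitosis. TK1 went with H2AX, NELFE and MCM5 (0.939, 0.925 and 0.924), and DTYMK with RANBP1 and BIRC5 (0.939 and 0.915) and with TK1 itself (0.911). RRM1 went with MCM4, FANCI and EZH2 (0.911, 0.890 and 0.879), and TYMS with TUBB, MCM4 and TUBG1 (0.912, 0.892 and 0.892). DUT went with HNRNPD, RPL14 and MRPL57 (0.897, 0.891 and 0.877), DCK with SEC22C and SMC6 (0.880 and 0.864), and SAMHD1 with SCCPDH, ACAD8 and PFKM (0.950, 0.947 and 0.945). Among the enzymes the closest pairs were TK1 with DTYMK (0.911), RRM1 with TYMS (0.813) and TYMS with DTYMK (0.794). The canonical transcripts of TK1 and DTYMK hold 60.3% and 57.8% GC, and the part of this in their correlation was not tested. RRM2 with TK1 was at 0.50 and SAMHD1 with RRM2 at -0.690.

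The other genes of deoxynucleotide supply, 51 in 6 lists, are given by counts and medians, and the same shares of all genes called apply to them. In siMYBL2 3 of 51 tested were called lower and 0 higher, with a list median of -0.15 beside -0.31 for the enzymes. In siFOXM1 0 of 51 were called, in siBoth 3 of 50 were lower and 0 higher (median -0.14), and in FDI6 2 of 51 were lower and 1 higher (median -0.08). Those called in siMYBL2 included CMPK1, the cytosolic UMP-CMP kinase (133 against 198 CPM, log2 fold change -0.64, adjusted p = 0.000719 with edgeR), and SLC29A2, a nucleoside transporter (9.01 against 14.1 CPM, -0.71, adjusted p = 0.022). CMPK1 (65.1 against 126 CPM, -1.06, adjusted p = 0.00114) fell in siBoth as well, as did MTHFD2, a mitochondrial folate enzyme (112 against 164 CPM, -0.65, adjusted p = 0.0253). With FDI-6, NUDT1 and DNPH1, which hydrolyse damaged or unwanted nucleotides, fell (-0.74 and -0.70, adjusted p = 0.00316 and 0.00273), and NT5E, the ecto-5′-nucleotidase, rose from 58.9 to 219 CPM (1.86, adjusted p = 4.05e-08). Values of the genes of these lists are given without the GC and length correction, which in FDI6 took the calls over all genes from 2098 to 1333.

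By list, ribonucleotide reductase partners had 0 of 4 called in every comparison and a median between -0.07 and 0.08. The thymidylate folate cycle had 1 of 6 called lower in siBoth and 0 of 7 called in the others, with medians of -0.23, -0.12, -0.17 and -0.18 in siMYBL2, siFOXM1, siBoth and FDI6. Deoxynucleoside salvage had 1 of 12 lower in siMYBL2 and 1 of 12 higher in FDI6. Nucleotide kinases and pool cleaning had 2 of 11 lower in siMYBL2, siBoth and FDI6. De novo pyrimidine synthesis (5 genes) and de novo purine synthesis (12 genes) had 0 called in any comparison, although at the adjusted p alone 5 purine genes were lower in siMYBL2, 3 in siBoth, and 3 lower and 3 higher in FDI6.

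Genes known to control these enzymes or the cell cycle in which they act were counted in the same way. Of 11, 5 were called lower in siMYBL2, 3 in siFOXM1, 5 in siBoth and 0 in FDI6, and 0 were called higher, with medians of -0.50, -0.20, -0.56 and -0.14. At the adjusted p alone 4 were lower (17.9% of all genes) and 2 higher (21.0%) in FDI6. CCNF, which encodes the cyclin F that marks RRM2 protein for degradation, fell in all 4 comparisons, at -1.26, -0.85, -1.99 and -0.46 in siMYBL2, siFOXM1, siBoth and FDI6 (adjusted p = 0.00138, 0.00284, 0.000153 and 0.00064, edgeR). CCNA2, an S and G2 phase cyclin, fell in siMYBL2 (-0.70), siFOXM1 (-0.61) and siBoth (-1.46), with adjusted p = 0.013, 0.0262 and 0.000257. CDK1, the main mitotic kinase, was called lower in siMYBL2 (-0.62, adjusted p = 0.00351), siFOXM1 (-0.69, adjusted p = 0.000274) and siBoth (-1.10, adjusted p = 0.000921), and E2F8, a repressor of S phase genes, in siMYBL2 (-1.31, adjusted p = 0.000831) and siBoth (-1.31, adjusted p = 0.00278). E2F1, an activator of S phase genes, passed in FDI6, at -0.49 (adjusted p = 0.000588), and was at -0.26, 0.12 and -0.05 in siMYBL2, siFOXM1 and siBoth (adjusted p = 0.281, 0.715 and 0.871 without the block). With the block E2F1 passed in siMYBL2 (-0.27, adjusted p = 0.00241). E2F8 in siFOXM1 was at -0.24 (adjusted p = 0.388 with edgeR and 0.017 with the block). MYBL2 (-0.51, adjusted p = 0.00105) and FOXM1 (-0.37, adjusted p = 0.004) were themselves lower with FDI-6, and FOXM1 was lower in siMYBL2 (-0.73, adjusted p = 0.00755). Values of the regulators, MYBL2 and FOXM1 are also given without the GC and length correction.

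**Figure D5:**
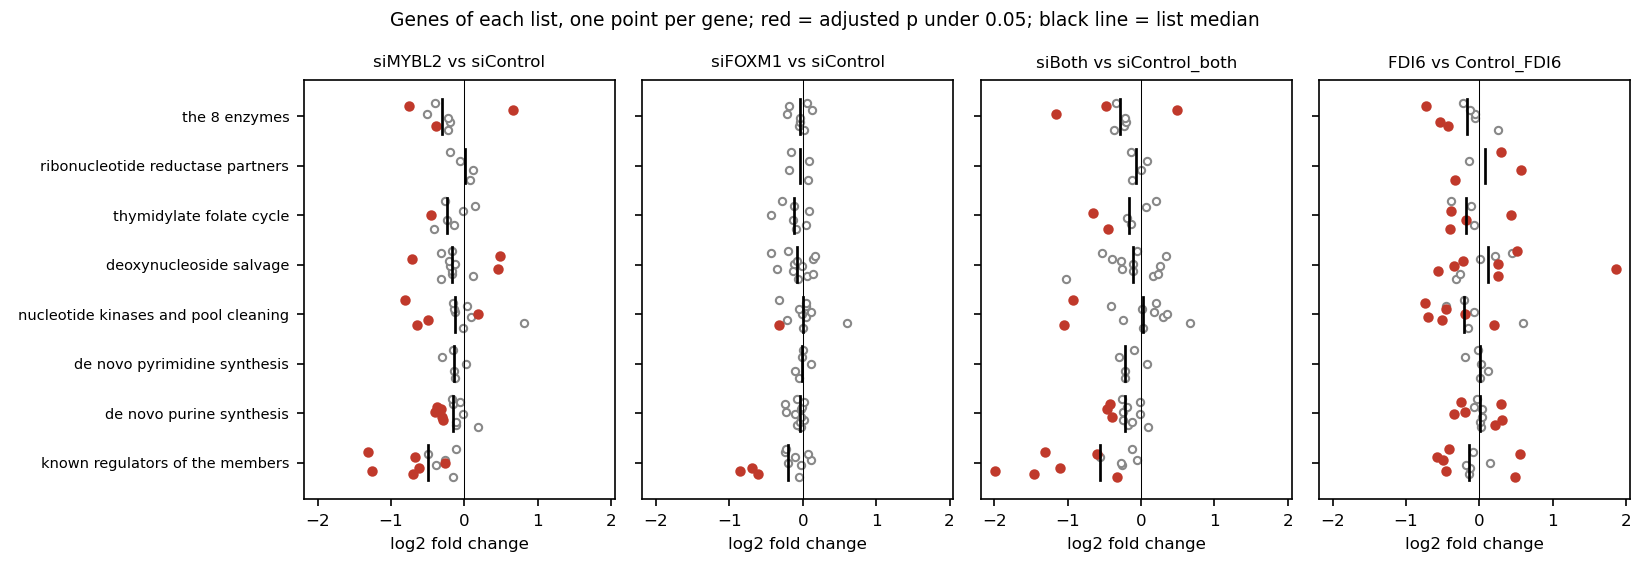
Log2 fold change (horizontal axis) of every gene in each list for the 4 comparisons, red at an adjusted p under 0.05, with the list median as a black line. The regulators lie furthest to the left in siMYBL2 and siBoth (medians -0.50 and -0.56), and the ribonucleotide reductase partners stay near 0 there.

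Cell-cycle phase lists were set beside the enzymes, with the enzymes taken out of them. In siMYBL2 the Seurat S phase list had a median log2 fold change of -0.33 with 7 of 39 called lower, near the -0.31 of the enzymes, and the G2/M list -0.42 with 17 of 54. In siFOXM1 the medians were -0.11 (1 of 39) and -0.13 (5 of 54), in siBoth -0.36 (5 of 39) and -0.63 (30 of 54), and in FDI6 -0.06 (0 of 39) and -0.14 (4 of 54). 0 genes of either list were called higher except 1 of the S phase list in FDI6. The part of a change in cell-cycle phases in the values of the enzymes was not tested.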

How the data were processed

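Poly(A) RNA-seq libraries of 24 A549 samples were grouped by their GEO labels. The deposited values are raw counts of pairs on each gene. The authors made them by trimming (Trim Galore), alignment to hg38 (STAR) and counting on GENCODE V29 genes (HTSeq), without normalization. Versions and strand setting are not given in the sources used here. HTSeq leaves out ambiguous pairs (7.88% to 11.2%), which lowers counts of overlapping genes. Identifiers were matched to GENCODE V44 (58207 of 58721), and RefSeq promoters (GRCh38.p14) by symbol.

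Every treatment was fitted together with its control alone in edgeR 4.0.16 in R 4.3.3 (TMM scaling, filterByExpr, quasi-likelihood test, Benjamini-Hochberg adjustment over 15240 to 16065 genes), and differences between effects in 1 fit of the groups involved. The edgeR fit without the block was tested on simulated counts of independent libraries. That test did not cover the replicate block, the GC and length correction or the ratio tests. CPM is relative to counts on genes and lacks the TMM scaling, so ratios of CPM means differ from the fitted log2 fold changes. Without that scaling the median log2 fold change of all genes was 0.08 in siMYBL2 and 0.12 in siBoth. Standard errors were obtained by dividing the log2 fold change by the square root of F. Ratios added 0.5 to each count. Same-numbered libraries deviated together in every pair of the knockdowns (correlations 0.573 to 0.875 in siMYBL2, 0.539 to 0.906 in siFOXM1 and 0.553 to 0.688 in siBoth), the numbers being those of the labels. Libraries of a group differed by more than counting noise (chi-square per gene of at least 3.57), so all were kept as replicates.

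Alternatives were DESeq2 1.42.0, other scalings and filters, the replicate block, a GC and length correction, all libraries in 1 fit, the adjusted p alone and leaving out each library. The GC and length correction and the fit of all libraries were not run for differences between effects. The enzymes and gene lists were chosen with earlier results of these data known. Genes named are the 8 enzymes, MYBL2, FOXM1, RRM2B, TK2, CCNF, E2F1 and ENOSF1, up to 3 called genes with the largest fall and 3 with the largest rise per list, and the 3 genes most like each enzyme, apart from a few results that are not reported here. S and G2/M lists came from Seurat 5.3.0.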

Additional observations from a re-analysis of the deposited data

Results flagged for a closer look

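Among the 8 enzymes in the 3 groups of 4 libraries, 1 value lay far from the rest of its group. DUT in siFOXM1 replicate 3 was at 75.9 CPM, while the other libraries of that group had 61.5 to 62.7, and the gap took 0.914 of the range of the group against a limit of 0.829. Chance flags about 1 in 20 such groups, and 24 were examined.

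The other results listed here are differences between effects with an adjusted p under 0.05 (edgeR). Between siMYBL2 and siFOXM1, TYMS (-0.47), TK1 (-0.58), DTYMK (-0.35) and DCK (-0.25) were lower and SAMHD1 (0.53) was higher on the log2 scale. Between FDI-6 and siFOXM1, each against its own control, TK1 (-0.55), DUT (-0.50) and DTYMK (-0.39) were lower. The GC and length correction was not fitted to these differences.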

How the results depend on the processing

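Of 544 recomputed log2 fold changes of the enzymes, 530 kept their direction and their side of the call. The exceptions were 6 that changed sign close to 0, 6 newly called and 2 no longer called. With siBoth, the calls among the 8 enzymes went from 1 to 2 with library size only (SAMHD1 at 0.60), with the GC and length correction (TK1 at -0.65) and with that correction plus the replicate block (TK1 at -0.65), and to 3 at the adjusted p alone. With FDI-6 they went from 1 to 0 with the GC and length correction and with it plus the block (TK1 at -0.36 both times), and to 3 at the adjusted p alone. That correction also brought RRM1 (-0.20), RRM2 (-0.21) and SAMHD1 (-0.28) past the adjusted p with FDI-6 and took DTYMK (-0.08) out. The replicate block brought the enzymes differing between siMYBL2 and siFOXM1 from 5 to 8, and between siBoth and siMYBL2 from 0 to 1. DUT in siFOXM1 changed sign with library size only (0.0023). The causes were not tested.

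Over all genes, calls went from 1269 to 1991 in siMYBL2 with the replicate block, to 1985 with it and the correction, and to 2902 at the adjusted p alone. In siFOXM1 106 became 401, 386 and 217, and in siBoth 1019 became 1849, 1592 and 1949, or 1545 with no filter. In FDI6 2098 became 1333 with the correction, 1273 with it and the block, and 5935 at the adjusted p alone. Scaling changed the split in siBoth, from 576 lower and 443 higher to 417 and 610 (upper quartile) and 383 and 729 (library size only), where the median of all genes was 0.12 in place of 0.02.

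Leaving out 1 library at a time gave 56 to 115 calls in siFOXM1 and 587 to 1097 in siBoth. Among the enzymes it gave 1 to 2 in siBoth (2 without siBoth replicate 3, where DCK was called), 1 to 2 in FDI6 (2 without replicate 2 of either group, where DUT was called), 3 to 5 differing between siMYBL2 and siFOXM1 and 1 to 3 between FDI-6 and siFOXM1. In siFOXM1, RRM1 ranged from -0.11 to 0.0014 and DCK from -0.019 to 0.059, and in FDI6 RRM1 from -0.15 to 0.0004 and RRM2 from -0.13 to 0.013. The RRM2 to RRM1 ratio in FDI6 ranged from -0.039 to 0.052 and RRM2 to RRM2B in siFOXM1 from -0.24 to 0.13. In siMYBL2, TK1 to TK2 ranged from -1.39 to -1.10 and SAMHD1 to RRM2 from 0.94 to 1.45, with an exact p of 0.0571 each time, the smallest that 3 libraries against 4 allow. As same-numbered pairs, the differences of -1.26 and 1.20 had an exact p of 0.125, the smallest for 4 pairs. The block was fitted in FDI6 too, where the numbers do not pair the libraries (mean correlation -0.0813), and changed no call of an enzyme there.

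DCK (11.2 to 39.9 CPM) and TYMS (13.7 to 32.0 CPM) reached the lowest levels of the enzymes, where counting error is relatively largest, and its share in the spread between libraries was not tested. Cultures of other lines and later times were not analysed here.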
